A study of Mus musculus with 16 samples.

Results

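The strain by TCPOBOP interaction asks, gene by gene, whether the liver of humanized mice responded to the compound as the liver of wild-type mice did. For each gene it is the log2 change with TCPOBOP in humanized mice minus the log2 change with TCPOBOP in wild-type mice. A value below 0 means that the humanized change was the more negative of the pair, and a value above 0 that it was the more positive. All genes of the deposited count table were considered, and 12913 of 24970 had enough counts to be tested. The libraries came from 16 livers in 4 groups of 4 mice: C57BL/6 Ntac wild-type mice and humanized PXR-CAR-CYP3A4/3A7 mice, each given either vehicle (DMSO in corn oil) or TCPOBOP. TCPOBOP was given at 3 mg/kg in 2 administrations 24 h apart, and livers were taken after 48 h. Both humanized groups carry the human receptor and CYP3A loci, so strain differences include every effect of that allele set. Age, sex, feeding and time of day were not given in the sources used here.

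CAR, encoded by Nr1i3, is a nuclear receptor of hepatocytes that, once activated, enters the nucleus and raises genes of drug oxidation, conjugation and export. TCPOBOP is a synthetic agonist of mouse CAR that activates the human receptor poorly, and in mice it is also known for liver growth with hepatocyte division. PXR, encoded by Nr1i2, is a related xenobiotic receptor whose target genes, such as the Cyp3a genes, overlap with those of CAR.

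Mouse Nr1i3 (NM_001243063, mm10 chromosome 1, 171213934 to 171218845) checked the strain labels. It was at 107, 93.3, 106 and 94.5 CPM (counts scaled to a common library size) in the wild-type vehicle livers and at 53.4, 57.8, 46.2 and 51.6 CPM in the wild-type TCPOBOP livers. The humanized livers held 2.69, 1.63, 1.96 and 2.5 CPM with vehicle and 2.21, 2.79, 5.01 and 3.79 CPM with TCPOBOP, so that all 8 lay far below every wild-type library. Its interaction was 1.60 ± 0.30 (log2 ± SE, edgeR adjusted p = 0.00325), where the transcript fell in wild-type liver (-0.94, adjusted p = 0.00199) and a change of 0.66 in humanized liver did not pass (adjusted p = 0.152). Mouse Nr1i2 showed no interaction past the threshold (0.16 ± 0.27, adjusted p = 0.807).

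Total counts per library ranged from 11827994 to 19483951 in 12 libraries and from 30228724 to 37998473 in the 4 wild-type TCPOBOP libraries, so depth and that group cannot be told apart. When all libraries were thinned to equal depth, 794 of the 963 interaction genes described below were still past the threshold. On the first 2 principal components, which held 53.5% and 14% of the variance of the most variable genes, humanized TCPOBOP replicates 1 and 2 lay among or next to the humanized vehicle livers. Replicates 3 and 4 lay nearer the wild-type vehicle livers. Leaving out humanized TCPOBOP replicate 1 raised the number of interaction genes from 963 to 1794, and leaving out wild-type vehicle replicate 2 raised it to 1703. Without wild-type TCPOBOP replicate 3 or 4, or humanized vehicle replicate 4, the numbers were 616, 575 and 630.

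Past an adjusted p of 0.05 in edgeR's quasi-likelihood test, 963 genes had an interaction, 7.46% of those tested, of which 449 (3.48%) lay above 0 and 514 (3.98%) below 0. Among these 963, chosen by a test of size against error, the estimated difference between the strains' responses was at least 2-fold for 835, 4-fold for 361 and 16-fold for 71, with a median SE of 0.366. By glmTreat, which tests against a minimum size, 404 exceeded 1.5-fold. TCPOBOP alone changed 1690 genes in wild-type liver (13.1%), 1045 upward (8.09%) and 645 downward (4.99%). In humanized liver it changed 325 genes (2.52%), 171 upward (1.32%) and 154 downward (1.19%). Of the 1045 genes that rose in wild-type liver, 425 had an interaction below 0, and of the 645 that fell, 290 had an interaction above 0. The median interaction over all genes tested was 0.0042 on these TMM-scaled values.

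**Figure D1:**
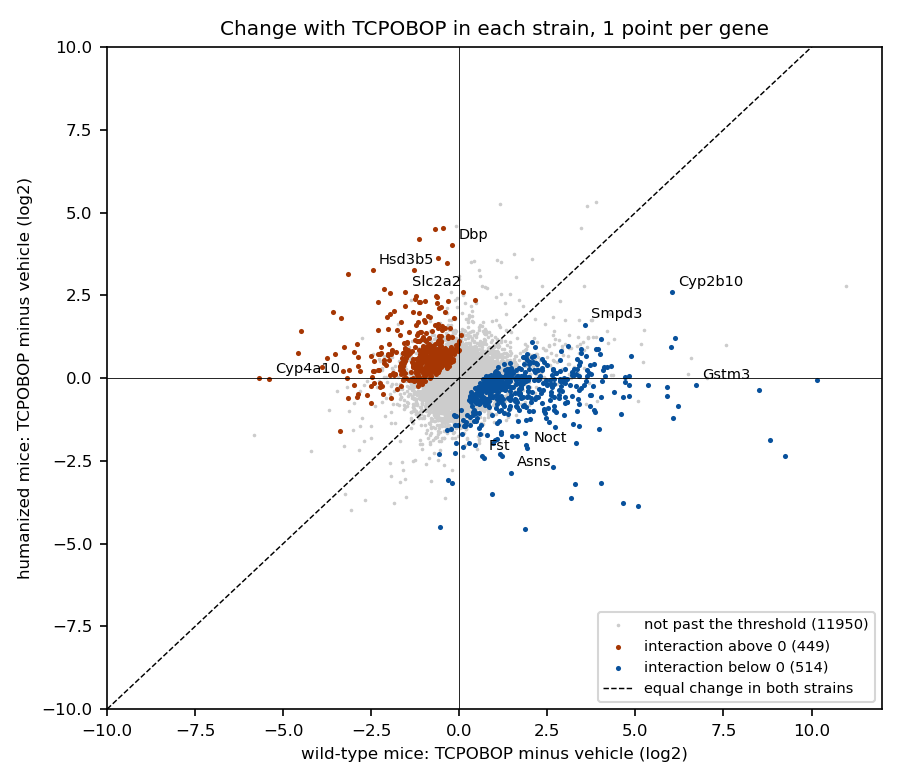
Log2 change with TCPOBOP in wild-type (x axis) against humanized mice (y axis), 1 point per gene tested; the dashed line marks equal change. The 514 genes with an interaction below 0 (blue) spread to the right along a humanized change near 0, and the 449 above 0 (brown) lie to the upper left.

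Most interaction genes were genes that passed the threshold for a change with TCPOBOP in wild-type mice alone. The 963 fell into classes by the strain in which TCPOBOP changed them: 665 (69.1%) passed in wild-type liver only, 99 (10.3%) in humanized liver only, 43 in both strains in opposite directions, 7 in both in the same direction and 149 in neither strain taken alone. The wild-type-only class had a median absolute change of 1.44 (log2) in wild-type and 0.339 in humanized liver. In the humanized-only class the same medians were 0.361 and 1.42. These classes restate which side of a threshold each strain's change fell on, and for the 149 genes of the last class only the interaction itself was past it.

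The 4 group means of each interaction gene were also compared to find the group that stood apart, that is, the group without which the other 3 means spanned the smallest range. Wild-type TCPOBOP stood apart for 612 genes, and for 460 of them none of its 4 libraries overlapped the 12 others. Over all genes tested, the wild-type TCPOBOP libraries were free of overlap for 10.7%, and genes chosen for an interaction with this group apart are more apt to be so. Humanized vehicle stood apart for 156 genes, wild-type vehicle for 99 and humanized TCPOBOP for 96. The strain differences under each treatment follow in part from this sorting and are given as a description. Among the 156, 146 differed between the strains under vehicle and 21 under TCPOBOP. Among the 612, 60 differed under vehicle and 603 under TCPOBOP. Over all genes tested, 16.1% differed between the strains under vehicle and 24.6% under TCPOBOP.

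**Figure D2:**
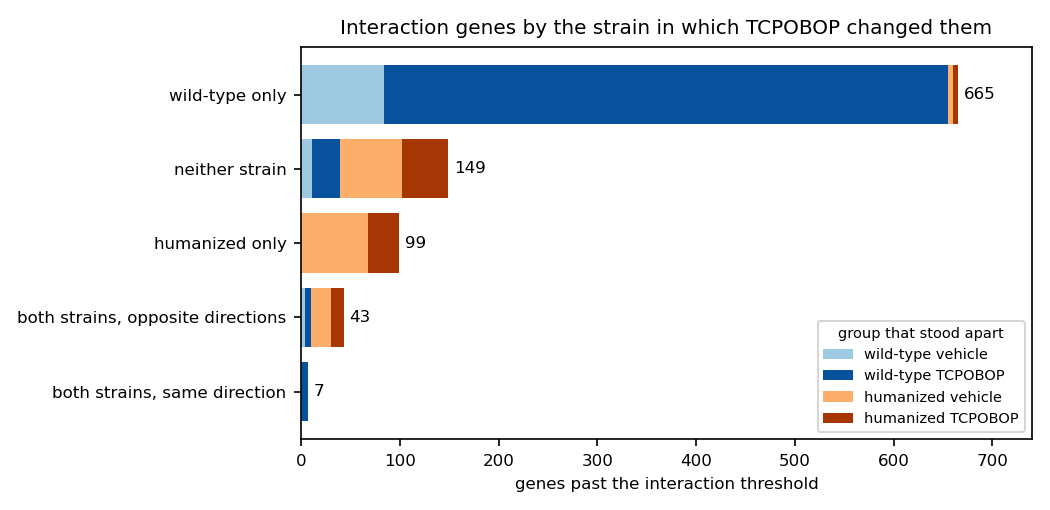
Number of interaction genes in each response class (x axis), divided by the group that stood apart. Wild-type TCPOBOP (dark blue) makes up 571 of the 665 wild-type-only genes, and humanized vehicle (light orange) 68 of the 99 humanized-only genes.

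Sequences of the proximal promoter, from 250 bases before to 50 bases after the start site, are shown for members of the groups in which the interaction genes moved together: mitosis genes and glutathione transferases, and for Asns, one of the genes that fell in humanized liver only. Every promoter shown holds the letters marked in it, which not every member of its group does. The shown promoters are thus not typical of their groups, whose counts are given after the sequences. They are RefSeq sequences of build GRCm38.p6, the build of the mm10 files, written 5′ to 3′ on the strand of the gene. The mitosis promoters are Plk1 (chr7:122159185-122159484, plus strand), Cdk1 (chr10:69352863-69353162, minus strand), Ccnb2 (chr9:70421505-70421804, minus strand) and Prc1 (chr7:80294201-80294500, plus strand). Capitals in these 4 mark TTTGAA, the core of the cell cycle genes homology region, and CCAAT, the core of the NF-Y box, read on either strand.
Plk1: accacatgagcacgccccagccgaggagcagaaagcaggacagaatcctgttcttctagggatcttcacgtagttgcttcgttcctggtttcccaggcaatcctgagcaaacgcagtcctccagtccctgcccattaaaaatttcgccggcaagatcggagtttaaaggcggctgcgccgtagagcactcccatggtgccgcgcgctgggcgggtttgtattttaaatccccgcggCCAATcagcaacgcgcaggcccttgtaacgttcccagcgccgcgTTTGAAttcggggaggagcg
Cdk1: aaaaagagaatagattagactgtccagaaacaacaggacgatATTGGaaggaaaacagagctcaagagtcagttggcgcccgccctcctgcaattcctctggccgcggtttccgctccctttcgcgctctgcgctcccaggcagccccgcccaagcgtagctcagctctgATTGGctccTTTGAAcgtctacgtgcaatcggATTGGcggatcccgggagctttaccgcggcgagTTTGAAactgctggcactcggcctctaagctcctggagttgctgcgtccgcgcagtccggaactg
Ccnb2: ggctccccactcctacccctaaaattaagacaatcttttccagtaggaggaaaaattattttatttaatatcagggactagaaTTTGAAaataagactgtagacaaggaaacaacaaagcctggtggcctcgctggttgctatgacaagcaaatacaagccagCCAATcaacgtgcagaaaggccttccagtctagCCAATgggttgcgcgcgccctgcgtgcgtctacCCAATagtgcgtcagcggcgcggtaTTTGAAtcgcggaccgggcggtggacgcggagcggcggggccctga
Prc1: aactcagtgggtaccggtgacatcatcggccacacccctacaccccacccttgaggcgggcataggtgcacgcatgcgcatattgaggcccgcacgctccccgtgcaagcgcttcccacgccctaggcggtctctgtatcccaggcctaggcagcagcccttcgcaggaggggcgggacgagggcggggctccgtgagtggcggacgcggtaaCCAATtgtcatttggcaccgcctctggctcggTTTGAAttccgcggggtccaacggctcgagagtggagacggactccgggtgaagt
The glutathione transferase promoters are Gstm1 (chr3:108017924-108018223, minus strand) and Gsta2 (chr9:78347096-78347395, minus strand), with CCAAT in capitals.
Gstm1: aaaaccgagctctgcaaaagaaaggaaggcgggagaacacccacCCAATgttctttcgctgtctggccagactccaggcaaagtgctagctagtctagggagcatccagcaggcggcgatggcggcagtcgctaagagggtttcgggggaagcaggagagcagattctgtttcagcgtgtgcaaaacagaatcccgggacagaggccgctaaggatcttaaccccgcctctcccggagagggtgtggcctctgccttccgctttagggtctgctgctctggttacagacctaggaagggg
Gsta2: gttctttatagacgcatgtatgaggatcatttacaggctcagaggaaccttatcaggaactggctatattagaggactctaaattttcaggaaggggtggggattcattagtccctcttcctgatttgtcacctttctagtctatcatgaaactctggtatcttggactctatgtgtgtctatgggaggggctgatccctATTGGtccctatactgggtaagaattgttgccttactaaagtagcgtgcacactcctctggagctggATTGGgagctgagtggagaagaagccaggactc
In the Asns promoter (chr6:7693160-7693459, minus strand) the capitals mark TGATGNAA, the composite element read by ATF4 and its partners, which begins 23 bases before the start site.
Asns: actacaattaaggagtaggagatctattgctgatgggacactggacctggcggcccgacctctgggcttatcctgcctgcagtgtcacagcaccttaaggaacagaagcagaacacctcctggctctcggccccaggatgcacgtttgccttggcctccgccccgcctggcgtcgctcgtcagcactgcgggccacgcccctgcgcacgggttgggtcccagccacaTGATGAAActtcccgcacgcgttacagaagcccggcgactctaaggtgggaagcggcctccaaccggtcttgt
A promoter was found for 15 of the 19 mitosis genes with an interaction, and 11 of these 15 held TTTGAA on either strand, against 18.1% of all 27025 promoters. The same letters were in 5 of 8 promoters of CAR-responsive CYP2 genes with an interaction, in 3 of 6 of glucuronidation and sulfation genes and in 2 of 13 of replication genes. CCAAT was in 10 of the 15 mitosis promoters and in 8 of the 10 glutathione transferase promoters, against 37.9% of all promoters. The antioxidant response element core TGACNNNGC was in 1 of those 10, against 12.5% of all promoters. The nuclear receptor half-site AGGTCA was in 56 of 403 promoters of genes with an interaction below 0 and in 49 of 352 above 0. It was in 16% of all promoters and in 12.9% of those of the genes tested. TGATGNAA was in 4.06% of all promoters and in 2.2% of those of the genes tested. Of the 2 unfolded protein and amino acid stress genes with an interaction, 1 held it. Promoters of the genes tested held TTTGAA in 12.2%, CCAAT in 39% and TGACNNNGC in 14.8%. A match here is a match of letters only, and the windows do not reach distal enhancers.

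Drug-metabolizing cytochromes P450 of the CYP2 families split in both directions. Beside the list counts here and below, 3.48% of all genes tested had an interaction above 0 and 3.98% below 0. Leaving out libraries also moved the counts over all genes, from 449 above 0 and 514 below 0. They were 963 and 831 without humanized TCPOBOP replicate 1, and 821 and 882 without wild-type vehicle replicate 2. Without humanized TCPOBOP replicates 1 and 2 they were 1480 and 1396, and without replicates 3 and 4 they were 484 and 555. List counts under these settings stand beside those numbers. Of 16 CAR-responsive CYP2 genes tested, 4 had an interaction below 0 (Cyp2c55, Cyp2b10, Cyp2c29 and Cyp2a5) and 4 above 0 (Cyp2c38, Cyp2c67, Cyp2c40 and Cyp2c69), with a median interaction of -0.18 against 0.0042 over all genes. Members of the Cyp2c, Cyp3a, Gsta, Gstm, Ces, Mup and Sult families share sequence, so a single member's value is less certain than the family's.

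Cyp2b10 (NM_009999, mm10 chromosome 7, 25897658 to 25926624), the classical CAR target, was at 16.4, 37.3, 89.8 and 49.2 CPM with vehicle and 2868, 3558, 3322 and 3041 CPM with TCPOBOP in wild-type liver. The humanized livers held 23.1, 14.9, 15.5 and 16.1 CPM with vehicle and 79.7, 63.3, 201 and 76.3 CPM with TCPOBOP. The gene thus rose in both strains without overlap, 66.2-fold in wild-type and 6.04-fold in humanized liver, and the responses differed 11-fold (-3.45 ± 0.58, adjusted p = 0.00141). All humanized TCPOBOP libraries lay far below all wild-type TCPOBOP libraries. Cyp2c55 was at 6.89, 17.5, 26.2 and 25 CPM and then 1369, 1013, 1365 and 1534 CPM in wild-type liver. In humanized liver it went from 15.7, 15.6, 11.2 and 19.8 to 31.9, 32.6, 41.4 and 38.7 CPM. This gene, too, rose in both strains without overlap, with an interaction of -4.91 ± 0.43 (adjusted p = 3.02e-06). Cyp2c29 had an interaction of -2.42 ± 0.43 (adjusted p = 0.00199), rising by 2.67 in wild-type liver, with a change of 0.24 in humanized liver (adjusted p = 0.729).

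Cyp2c67 moved the other way. It was at 95.4, 66.6, 115 and 126 CPM with vehicle and 28.6, 26, 19.1 and 18.4 CPM with TCPOBOP in wild-type liver, and at 52.4, 92.6, 77.6 and 63.8 CPM with vehicle and 102, 95.6, 85.2 and 112 CPM with TCPOBOP in humanized liver. Only the wild-type TCPOBOP libraries were low (interaction 2.59 ± 0.31, adjusted p = 7.82e-05). Cyp2c69 had an interaction of 5.71 ± 1.23 (adjusted p = 0.0081), but its wild-type vehicle libraries were spread over 11.1, 16.7, 1.12 and 1 CPM, and the call was lost with limma-voom (adjusted p = 0.074).

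Among 7 mouse Cyp3a genes 1 passed, Cyp3a16, below 0, which had no count in any humanized TCPOBOP library. It was tested in 28 of 30 alternatives and did not pass under 9 of those 28. Cyp3a11 (NM_007818, mm10 chromosome 5, 145854607 to 145879854), a main PXR and CAR target, was at 1279, 2016, 2878 and 5751 CPM with vehicle and 16050, 13690, 17320 and 16660 CPM with TCPOBOP in wild-type liver. The humanized libraries held 0.829, 0.465, 0.84 and 0.104 CPM and 0.738, 0.418, 0.819 and 0.237 CPM, near the level of 3 counts. Its interaction of -2.39 ± 0.82 did not pass (adjusted p = 0.0869), although it did without wild-type vehicle replicate 4 (-2.92, adjusted p = 0.015). Cyp3a13, which was expressed in both strains, was at -1.19 ± 0.36 (adjusted p = 0.0525) and passed under 11 of 30 alternatives, among them without humanized TCPOBOP replicate 1 (-1.40, adjusted p = 0.013). Cyp1a2, a P450 of caffeine and arylamine oxidation, rose in both strains, from 698 ± 127 to 2897 ± 311 CPM and from 363 ± 44.1 to 780.2 ± 180.4 CPM (SD, n = 4). Its interaction of -0.95 ± 0.28 lay close to the threshold (adjusted p = 0.0461) and did not pass under 20 of 30 alternatives.

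Glutathione transferases, which conjugate electrophiles with glutathione, had interactions below 0. Of 21 tested, 11 lay below 0 in edgeR, with a median of -1.25, and the other 10 did not pass. They were Gsta1, Gsta2, Gsta3, Gsta4, Gstm1, Gstm2, Gstm3, Gstm4, Gstt1, Gstt3 and Gstp2. Above 0 there were 0 in edgeR, 0 at an unadjusted p under 0.05 and 0 in DESeq2 or limma-voom, but 1 without humanized TCPOBOP replicates 3 and 4. In humanized vehicle liver, 8 of the 21 were already higher than in wild-type vehicle liver, against 7.11% of all genes tested.

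Gstm3 (NM_010359, mm10 chromosome 3, 107963696 to 107969174) was at 40.8, 55.1, 45.6 and 30.2 CPM with vehicle and 3426, 4870, 4383 and 5243 CPM with TCPOBOP in wild-type liver. Humanized livers were at 189, 135, 184 and 174 CPM with vehicle and 162, 207, 118 and 106 CPM with TCPOBOP. The 4 wild-type TCPOBOP libraries stood alone, while each humanized library lay above all wild-type vehicle libraries (interaction -6.91 ± 0.36, 120-fold, adjusted p = 3.48e-09). Gstm1, whose promoter is shown above, went from 471, 979, 477 and 538 to 2960, 4203, 3399 and 4524 CPM in wild-type liver. In humanized liver it was at 1146, 958, 1286 and 1005 CPM with vehicle and 706, 1047, 729 and 632 CPM with TCPOBOP (interaction -3.11 ± 0.35, adjusted p = 4.32e-05). Gsta2 changed in opposite directions: wild-type libraries went from 1.17, 7.79, 6 and 12.5 to 12.5, 26.5, 18.7 and 29.9 CPM, and humanized libraries from 40.6, 14.9, 25.8 and 23.8 to 8.56, 7.94, 9.01 and 5.92 CPM. Its wild-type groups overlapped by a narrow margin, and the humanized groups did not overlap (interaction -3.38 ± 0.61, adjusted p = 0.00247). Gsta1 had the largest interaction of the named genes (-10.71 ± 0.78), from 0 to 0.364 CPM in wild-type vehicle and 55.2, 73.5, 75.8 and 92 CPM in wild-type TCPOBOP libraries, against 0.118 to 3.21 CPM in the 8 humanized libraries.

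Other conjugating enzymes and hydrolases gave fewer interactions. Of 26 glucuronidation and sulfation genes, 4 lay below 0 (Sult1e1, Sult1c2, Papss2 and Ugdh) and 2 above 0 (Ugt2a3 and Ugt2b38). A single gene lay above 0 without humanized vehicle replicate 1 or 4, humanized TCPOBOP replicate 3, wild-type vehicle replicate 3 or 4, or wild-type TCPOBOP replicate 3 or 4. Sult1e1, the estrogen sulfotransferase, had 1 count in the wild-type vehicle group and 25.9, 30.6, 66.4 and 41.4 CPM in the wild-type TCPOBOP libraries, against at most 0.521 CPM in any humanized library (adjusted p = 0.000606). Ugdh, which makes the UDP-glucuronate that glucuronidation uses, had an interaction of -1.25 ± 0.25 (adjusted p = 0.00455). Of 25 carboxylesterases, aldehyde dehydrogenases and aldo-keto reductases, 4 lay below 0 and 3 above 0. Ces2a, a carboxylesterase that cleaves ester drugs, was at 422, 768, 502 and 722 CPM and rose to 5503, 7297, 6573 and 6284 CPM in wild-type liver. Humanized livers held 546, 548, 602 and 561 CPM with vehicle and 785, 779.6, 733 and 645 CPM with TCPOBOP. The humanized groups did not overlap either, but their difference of 0.38 did not pass (adjusted p = 0.32; interaction -3.03 ± 0.28, adjusted p = 4.06e-06). Akr1b7 (-6.16 ± 0.73, adjusted p = 7.48e-05) and Aldh1a7 (-1.42 ± 0.21, adjusted p = 0.000594) also lay below 0. Ces2e, a paralog of Ces2a, lay above 0: only the humanized vehicle libraries, at 40.6, 40.5, 28.9 and 35 CPM, were low, and humanized TCPOBOP libraries, at 75.8, 112, 109 and 113 CPM, lay near the 100.1, 112, 85 and 118 CPM of wild-type vehicle livers (1.75 ± 0.26, adjusted p = 0.000504).

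Of 19 hepatic transporters, 1 lay below 0 and 2 above 0. Abcc4, an exporter of conjugates into blood, was at 2.93, 6.84, 4.88 and 4.36 CPM with vehicle and 25.1, 51.6, 30 and 52.7 CPM with TCPOBOP in wild-type liver. Humanized livers were at 16.4, 8.84, 9.52 and 12.5 CPM with vehicle and 3.25, 4.18, 11.3 and 9.47 CPM with TCPOBOP (interaction -3.78 ± 0.52, adjusted p = 0.000312). Slc22a7, an organic anion uptake carrier, changed in opposite directions, from 62.8 ± 38.3 to 21.7 ± 5.46 CPM in wild-type liver and from 17.4 ± 3.81 to 79.5 ± 16.2 CPM in humanized liver (SD, n = 4; 3.73 ± 0.52, adjusted p = 0.000375). Slco1a1, a male-biased uptake carrier, had an interaction of 3.86 ± 0.73 (adjusted p = 0.00324). Without wild-type vehicle replicate 2, 6 transporters lay above 0 and 3 below 0, and without humanized TCPOBOP replicate 1, 4 lay above 0. NRF2, the regulator of antioxidant genes, has 17 targets on the list tested, of which 5 lay below 0. Srxn1, which repairs oxidized peroxiredoxins, rose only in wild-type liver, from 41.2, 57, 48.8 and 57.6 to 158, 352, 329 and 493 CPM, while all 8 humanized libraries lay between 43.7 and 67.2 CPM (-2.74 ± 0.37, adjusted p = 0.000233). Nqo1, a quinone reductase that was also on the list of 5 aryl hydrocarbon receptor targets with Cyp1a2, the other of the 2 to pass there, started higher in humanized vehicle livers (12.6, 16.1, 12.6 and 11.9 CPM) than in wild-type vehicle livers (3.52, 7.42, 3.66 and 4.63 CPM), rose in the wild type, and was at 6.34, 8.36, 8.29 and 6.28 CPM in humanized TCPOBOP livers (-2.48 ± 0.39, adjusted p = 0.000778). Without humanized TCPOBOP replicate 1, 8 NRF2 targets lay below 0. The pentose phosphate pathway, which supplies NADPH, gave 1 gene of 8, Pgd (-1.23 ± 0.33, adjusted p = 0.0277), which did not pass under 11 of 30 alternatives. Of 15 genes of microsomal electron transfer and heme synthesis, the epoxide hydrolase Ephx1 lay below 0 (-1.87 ± 0.36, adjusted p = 0.00349) and Cpox, of heme synthesis, above 0 (1.31 ± 0.27, adjusted p = 0.00526). Below 0 there were 2 of these genes without humanized TCPOBOP replicate 1 or wild-type vehicle replicate 2. Por, the electron donor of the P450s, did not pass (-0.97 ± 0.44, adjusted p = 0.205) and was at -1.41 (adjusted p = 0.012) without wild-type vehicle replicate 2.

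**Figure D3:**
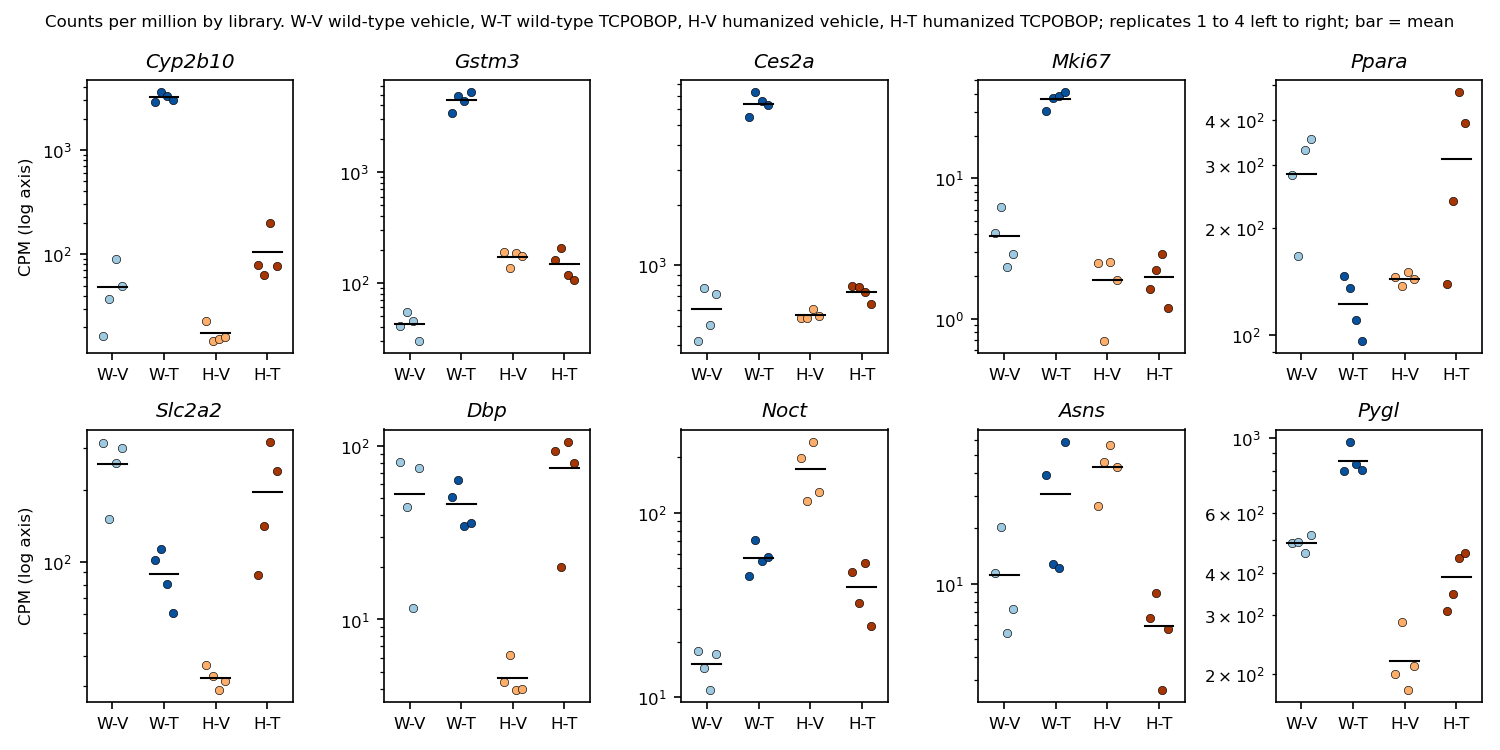
CPM (log axis) of 10 genes in each of the 16 libraries, with the mean of each group as a bar. Cyp2b10, Gstm3, Ces2a and Mki67 are high in wild-type TCPOBOP libraries; Slc2a2 and Dbp are low and Noct is high in humanized vehicle libraries; Pygl rises in both strains.

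Cell-cycle genes showed the lowest median interaction of any pathway list with at least 20 members. Of 28 mitosis and G2/M genes, 19 lay below 0, and all 28 had a value below 0, with a median of -3.06. Their median change was 3.33 in wild-type and 0.10 in humanized liver. Of 28 DNA replication and G1/S genes, 14 lay below 0 and 1 above 0, with a median of -1.81. Without wild-type vehicle replicate 2, 23 replication genes lay below 0, while over all genes the number below 0 went from 514 to 882. That library had the highest level of many cell-cycle genes among the vehicle livers, and its part in the count was not tested.

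Mki67, the proliferation marker, was at 4.11, 6.27, 2.35 and 2.91 CPM with vehicle and 30.3, 37.5, 38.9 and 41.1 CPM with TCPOBOP in wild-type liver. Its humanized values were 2.49, 0.698, 2.52 and 1.88 CPM with vehicle and 1.62, 2.23, 2.87 and 1.18 CPM with TCPOBOP. The wild-type TCPOBOP libraries lay above all 12 others, and the humanized groups overlapped (interaction -3.16 ± 0.50, adjusted p = 0.000857). Cdk1, the mitotic kinase, had an interaction of -3.62 ± 0.65 (adjusted p = 0.0021), Prc1, which bundles spindle microtubules, of -3.76 ± 0.50 (adjusted p = 0.000226), and Mad2l1, of the spindle checkpoint, of -3.38 ± 0.47 (adjusted p = 0.000312). Plk1 went from 1.17, 2.85, 1.12 and 0.545 to 8.91, 15.7, 13.3 and 14.6 CPM in wild-type liver and stayed between 0 and 0.834 CPM in all 8 humanized libraries. Foxm1, the transcription factor of G2/M genes, did likewise, with 12, 15.4, 15 and 15.1 CPM in wild-type TCPOBOP libraries and at most 0.938 CPM in humanized ones (-3.80 ± 0.77, adjusted p = 0.00507). Top2a passed (-2.93 ± 0.74, adjusted p = 0.0209), though not without humanized vehicle replicate 1 (adjusted p = 0.052) or 4 (adjusted p = 0.084). Cdc20 had an interaction of -5.02 ± 1.44 (adjusted p = 0.0398) and did not pass under 14 of 30 alternatives.

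Among replication genes, Rrm2, a subunit of ribonucleotide reductase, had an interaction of -2.85 ± 0.52 (adjusted p = 0.00256) and Chaf1b, a histone chaperone, of -3.13 ± 0.45 (adjusted p = 0.000436). The helicase subunit gene Mcm2 went from 7.33, 19.2, 2.81 and 2.91 to 33.8, 49.2, 52.7 and 59.8 CPM in wild-type liver and lay between 2.21 and 5.28 CPM in all humanized libraries. Mcm10, a replication initiation factor, went the other way: it was at 61.3, 66.9, 63.1 and 76.2 CPM with vehicle and 37.5, 29.8, 24.9 and 20.5 CPM with TCPOBOP in wild-type liver. It lay at 54.1, 92.6, 95.2 and 42.5 CPM and 109, 105, 80 and 54.2 CPM in humanized liver (1.54 ± 0.38, adjusted p = 0.017). Of 14 growth-response genes, 2 lay below 0. Myc had 29.3, 64.2, 62 and 58.6 CPM in wild-type TCPOBOP libraries, of which replicate 1 lay inside the vehicle range of 22, 35.4, 8.82 and 13.8 CPM (-2.37 ± 0.48, adjusted p = 0.00543). Ccnd1, the G1 cyclin, did not pass (-1.84 ± 0.57, adjusted p = 0.0583), but did with DESeq2 (adjusted p = 0.0225) and limma-voom (adjusted p = 0.0286). It also passed with no filter on low counts (adjusted p = 0.0408) and with the replicate block (adjusted p = 0.0498). Wild-type vehicle replicate 2 held 133 CPM of Ccnd1 against 21.7 to 45.9 CPM in the other 3, and without it the interaction was -2.65 (adjusted p = 0.00014).

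**Figure D4:**
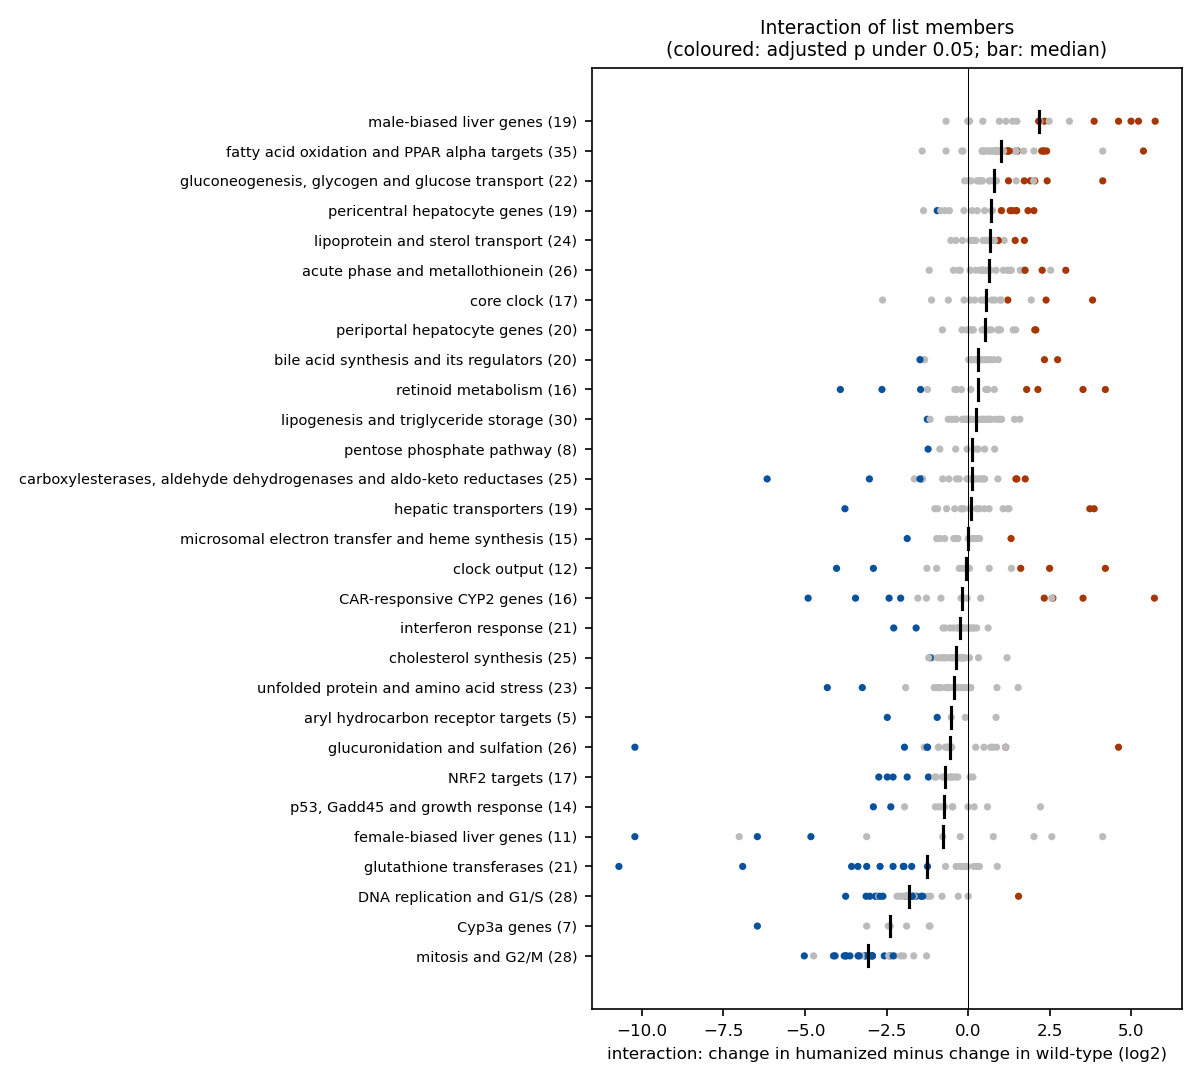
Interaction (log2, x axis) of every tested member of the 29 pathway lists, ordered by median (black bar); blue and brown points are past the threshold. Mitosis genes lie lowest, with a median of -3.06, and male-biased genes highest, at 2.16.

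Genes that burn fatty acids, and targets of PPAR alpha, the receptor that switches this pathway on in fasting, passed above 0 in part. Of 35 tested, 12 passed above 0, 23 did not pass and 4 had values below 0, with a median of 0.99, but 6 passed without humanized vehicle replicate 4, without wild-type TCPOBOP replicate 3 or without replicate 4. Among the 12 were Cyp4a10, Acot1, Ppara, Cyp4a32, Cpt1a, Fabp1, Slc25a20, Acaa1a, Ech1, Acaa2 and Bdh1. Ppara itself was at 281, 167, 331 and 354 CPM with vehicle and 147, 136, 111 and 96.7 CPM with TCPOBOP in wild-type liver. In humanized liver it was at 145, 137, 150.1 and 143 CPM with vehicle, and with TCPOBOP replicates 2 to 4 reached 238 to 478 CPM while replicate 1, at 139 CPM, lay within the vehicle range (2.32 ± 0.43, adjusted p = 0.00262). Cyp4a10, a fatty acid omega-hydroxylase, was at 25.9, 30.1, 9.75 and 198 CPM with vehicle and 1.75, 2.55, 0.748 and 1.16 CPM with TCPOBOP in wild-type liver. Humanized libraries held 29.7, 7.21, 12.9 and 14.4 CPM and 24.8, 6.69, 28.4 and 2.84 CPM and overlapped (5.37 ± 1.16, adjusted p = 0.00841, adjusted p = 0.052 with limma-voom). Its neighbour Cyp4a14 did not pass (4.12 ± 1.34, adjusted p = 0.0707).

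Of 30 lipogenesis and triglyceride storage genes 1 passed, the desaturase Fads1 (-1.26 ± 0.28, adjusted p = 0.0104), with a median of 0.24. Of 25 cholesterol synthesis genes 1 passed, Fdps (-1.16 ± 0.32, adjusted p = 0.0333), which did not pass under 13 of 30 alternatives. In this list 22 of 25 values were below 0, with a median of -0.37, and without wild-type vehicle replicate 2, 5 genes passed below 0 and 1 above 0. Fasn, the fatty acid synthase, had an interaction of -0.08 ± 0.59 (95% interval -1.32 to 1.15), an interval that holds differences of 2-fold in either direction. The wild-type vehicle livers differed widely here: Fasn was at 1956, 2796, 501 and 739.6 CPM and the triglyceride lipase gene Pnpla3 at 26.2, 61, 0.563 and 0.363 CPM, with replicates 1 and 2 high for both genes. Thrsp, a lipogenic regulator, rose in humanized liver (adjusted p = 0.0169), with an interaction of 1.58 ± 0.52 that did not pass (adjusted p = 0.0748). It passed with DESeq2 (1.64, adjusted p = 0.0213), without wild-type vehicle replicate 3 (1.88, adjusted p = 0.012) and without wild-type TCPOBOP replicate 2 (1.89, adjusted p = 0.038). Among 24 lipoprotein and sterol transport genes, 3 lay above 0. Scarb1, the HDL receptor, fell in wild-type liver only (1.44 ± 0.30, adjusted p = 0.00626), as did Lrp1, an uptake receptor for remnants (1.72 ± 0.41, adjusted p = 0.0149).

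Of 22 genes of gluconeogenesis, glycogen and glucose transport, 6 passed above 0 and 16 did not pass, with 21 values above 0 and a median of 0.79. Without humanized TCPOBOP replicate 1, 10 passed. Pck1, the committed enzyme of gluconeogenesis, went from 3462, 5096, 4311 and 4948 to 1614, 1390, 851 and 736 CPM in wild-type liver. It was at 3236, 5103, 5379 and 4813 CPM with vehicle and 5423, 5694, 5832 and 2687 CPM with TCPOBOP in humanized liver, where the groups overlapped (2.04 ± 0.41, adjusted p = 0.0046). Slc2a2 (NM_031197, mm10 chromosome 3, 28697903 to 28728361), the glucose transporter GLUT2 of hepatocytes, had the largest interaction of the list. It was at 316, 150.2, 260.2 and 299 CPM with vehicle and 101, 113, 80.1 and 60.7 CPM with TCPOBOP in wild-type liver. Humanized libraries were at 36.9, 32.9, 28.9 and 31.5 CPM with vehicle and 87.5, 141, 318 and 239.5 CPM with TCPOBOP. The transcript fell by 1.53 on the log2 scale in one strain and rose by 2.59 in the other, with no overlap in either (4.12 ± 0.47, 17.4-fold, adjusted p = 4.27e-05). Humanized TCPOBOP replicates 3 and 4 reached the wild-type vehicle range, and replicates 1 and 2 lay below it. Gys2, the liver glycogen synthase, had an interaction of 1.72 ± 0.37 (adjusted p = 0.0076).

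Of 20 genes of bile acid synthesis and its regulators, 1 lay below 0 and 2 above 0: Akr1d1 below, and Klb, the FGF15 co-receptor (2.74 ± 0.52, adjusted p = 0.00332), and Cyp7b1, of the alternative pathway (2.34 ± 0.46, adjusted p = 0.00441), above. Below 0 there were 3 without humanized TCPOBOP replicate 3 and 2 without wild-type vehicle replicate 4. Cyp7a1, the rate-limiting enzyme of bile acid synthesis, rested on 1 library. Humanized TCPOBOP replicates 1, 2 and 4 held 22.0, 35.1 and 27.2 CPM, replicate 3 held 102 CPM, and the 12 other libraries held 82.1 to 169 CPM. The interaction of -1.34 ± 0.50 did not pass (adjusted p = 0.12), and without replicate 3 it was -2.07 (adjusted p = 0.00097).

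Retinoid genes had interactions in both directions. Of 16 tested, 3 lay below 0 (among them the receptor Rarb and Rdh11) and 4 above 0 (the retinol dehydrogenases Rdh9, Rdh16 and Rdh16f2, and Cyp26b1, which degrades retinoic acid). Rdh9 was at 98.5, 92.6, 58 and 37.2 CPM with vehicle and 11.5, 7.42, 5.42 and 5.2 CPM with TCPOBOP in wild-type liver. Humanized livers held 38.7, 27.3, 25.5 and 33.2 CPM with vehicle and 55.6, 54.9, 73.9 and 52.6 CPM with TCPOBOP, without overlap. The wild-type TCPOBOP libraries lay below all others (4.20 ± 0.42, adjusted p = 1.14e-05). Rdh16 had an interaction of 3.52 ± 0.47 (adjusted p = 0.000233). Cyp26b1 was the 1 gene of the class changed in the same direction in both strains whose interaction lay above 0, falling by 3.39 in wild-type and by 1.60 in humanized liver (1.79 ± 0.42, adjusted p = 0.0137).

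The genes changed in the same direction in both strains with different size numbered 7: Cyp2b10, Cyp2c55, Smpd3, Aldh1a7, Cyp1a2, 4931406C07Rik and Cyp26b1. In each of them the change was the larger in wild-type liver. Smpd3, a neutral sphingomyelinase, was at 7.04, 7.42, 5.35 and 5.91 CPM with vehicle and 69.9, 72.6, 90.3 and 70 CPM with TCPOBOP in wild-type liver. Humanized libraries went from 2.17, 2.56, 1.96 and 2.29 to 6.79, 10.6, 5.53 and 4.97 CPM, that is, up to about the level of untreated wild-type livers (-1.94 ± 0.32, adjusted p = 0.0011).

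Opposite changes in the strains marked 43 genes, 30 with an interaction above 0 and 13 below. For 20 of the 43 the humanized vehicle group stood apart, and 37 differed between the strains under vehicle. Noct, a clock-driven phosphatase of NADPH, was at 17.9, 14.4, 11 and 17.3 CPM with vehicle and 45.5, 71, 54.7 and 57.5 CPM with TCPOBOP in wild-type liver. The humanized values were 199, 116, 242 and 129.9 CPM with vehicle and 47.8, 32.6, 53.6 and 24.3 CPM with TCPOBOP. The humanized vehicle libraries were the highest of all, and the TCPOBOP groups of the strains overlapped (-4.04 ± 0.39, adjusted p = 7.07e-06). Acmsd, which diverts tryptophan breakdown away from NAD synthesis, was at 23.5, 44.7, 16.7 and 21.3 and then 126, 141, 164 and 152 CPM in wild-type liver, and at 42.3, 62.3, 38.1 and 45.4 and then 12.7, 24.1, 22.6 and 21.4 CPM in humanized liver (-3.67 ± 0.38, adjusted p = 1.91e-05). Ybx3, a cold-shock domain protein (-2.79 ± 0.25, adjusted p = 3.02e-06), and Mtmr11 (-4.19 ± 0.46, adjusted p = 2.81e-05) also rose in wild-type and fell in humanized liver. Ctsl, a lysosomal protease, did so with smaller spread, from 618, 574, 643 and 559 to 946, 872, 882 and 787 CPM and from 1010, 1124, 1003 and 1199 to 653, 793, 618 and 615 CPM (-1.24 ± 0.21, adjusted p = 0.00161). Gpd1, which links glycolysis to glycerol phosphate, and Mgll, the monoglyceride lipase, fell in wild-type and rose in humanized liver, with interactions of 1.86 ± 0.23 (adjusted p = 0.000127) and 1.91 ± 0.27 (adjusted p = 0.000414). Gpd1 was at 512, 487, 502 and 502 CPM with vehicle and 273, 283, 224 and 199 CPM with TCPOBOP in wild-type liver, and at 185, 273, 221 and 208 CPM and 392, 393, 337 and 453 CPM in humanized liver, so that the humanized vehicle level lay with that of treated wild-type livers.

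**Figure D5:**
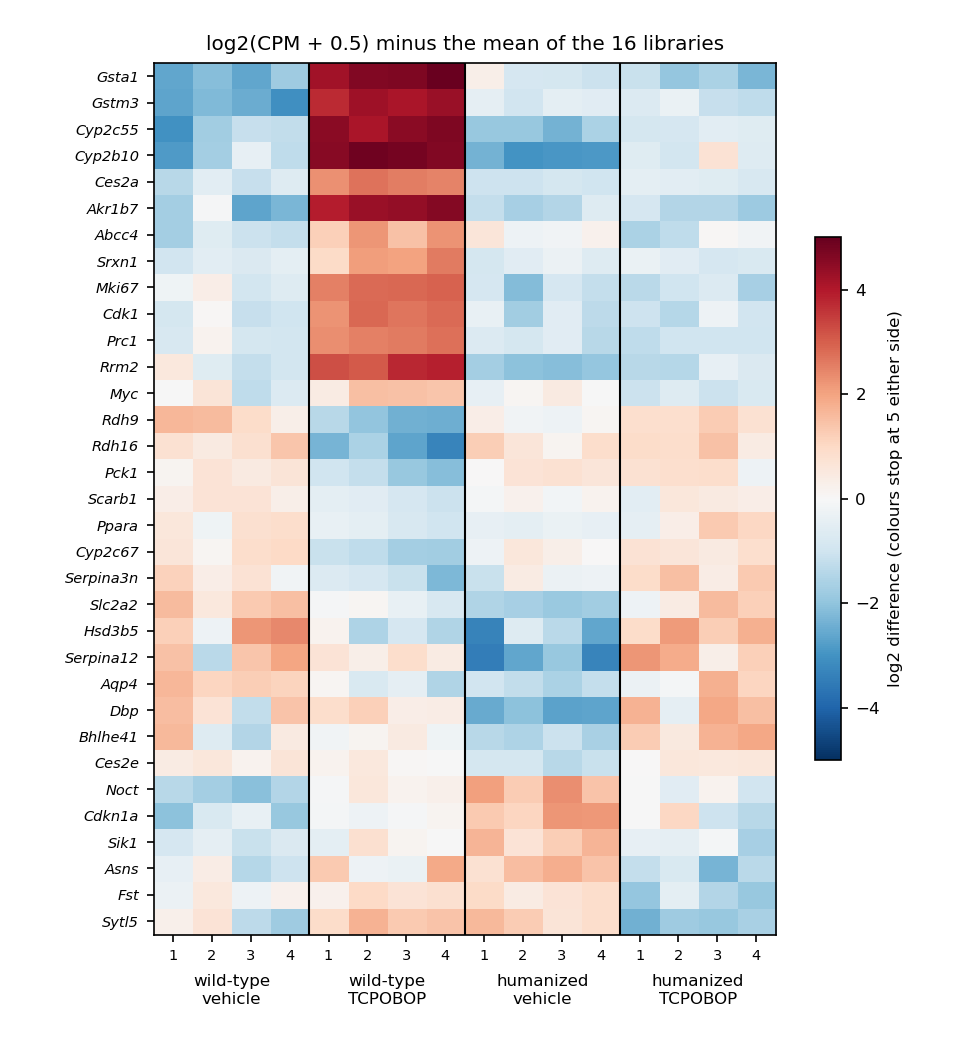
Log2(CPM + 0.5) of 33 named genes (rows) in the 16 libraries (columns), each as the difference from its mean over all libraries, with colours stopping at 5 either side. The upper rows are high, and the middle rows low, in wild-type TCPOBOP libraries; the rows from Slc2a2 to Sik1 differ most in the humanized vehicle libraries.

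Genes that passed in humanized liver only numbered 99, of which 59 had an interaction above 0 and 40 below. Humanized vehicle stood apart for 68 of them and humanized TCPOBOP for 31. Dbp, a clock output transcription factor, was at 81.2, 44.4, 11.6 and 75.1 CPM with vehicle and 50.9, 63.8, 34.6 and 35.9 CPM with TCPOBOP in wild-type liver. It was at 4.35, 6.28, 3.92 and 3.96 CPM in humanized vehicle and 93.1, 20.1, 106 and 79.6 CPM in humanized TCPOBOP livers. The 4 humanized vehicle libraries lay below all 12 others (4.20 ± 0.71, adjusted p = 0.00148), and the strains did not differ past the threshold under TCPOBOP (adjusted p = 0.296). Serpina12, the adipokine vaspin, showed the same order, with 1.24, 2.67, 4.62 and 1.46 CPM in humanized vehicle and 89.4, 68.3, 22.9 and 42.9 CPM in humanized TCPOBOP livers (5.22 ± 0.78, adjusted p = 0.000606). Rgs16, a regulator of G protein signalling, was at 13.7, 26.8, 7.84 and 15.2 CPM and then 125, 141, 394 and 125 CPM in humanized liver, and at 242, 103, 151 and 416 CPM in wild-type vehicle livers (4.23 ± 0.70, adjusted p = 0.00127). Sik1, a salt-inducible kinase, went the other way, with humanized vehicle libraries at 151, 74.7, 110.1 and 153 CPM, against 14.2 to 82.1 CPM in the 12 others (-2.92 ± 0.45, adjusted p = 0.000732).

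For another set the humanized TCPOBOP group itself stood apart. Fst, the activin antagonist follistatin, was at 0.885, 3.35, 1.43 and 0.947 CPM there and at 3.81 to 10.05 CPM in the 12 other libraries (-3.01 ± 0.47, adjusted p = 0.000787). Sytl5 was at 0, 0.279, 0.205 and 0.355 CPM in humanized TCPOBOP libraries (7 counts in total), against 7.66, 5.81, 3.64 and 4.38 CPM with vehicle (-6.43 ± 0.88, adjusted p = 0.00029). Wild-type vehicle libraries held 2.64, 3.71, 0.563 and 0.273 CPM, so replicate 4 of these overlapped the humanized TCPOBOP group. In wild-type liver Sytl5 rose with TCPOBOP (1.86, adjusted p = 0.0193), opposite to the humanized change. Csad, of taurine synthesis, was at 178, 145, 187 and 203 CPM there against 312 to 829 CPM in the others (-2.26 ± 0.36, adjusted p = 0.000857). Asns, the asparagine synthetase whose promoter is shown above, was at 6.49, 8.92, 2.66 and 5.68 CPM in humanized TCPOBOP and 26.3, 45.4, 56.3 and 42.8 CPM in humanized vehicle livers. Wild-type livers held 11.4, 20.2, 5.44 and 7.27 CPM with vehicle and 38.6, 12.8, 12.1 and 58.6 CPM with TCPOBOP, with replicates 1 and 4 high in the latter (-4.32 ± 0.72, adjusted p = 0.00133). Of 23 genes of the unfolded protein and amino acid stress list, Asns and Psat1 passed below 0. Psat1 did not pass under 19 of 30 alternatives, and 6 passed without humanized TCPOBOP replicate 1.

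Clock genes moved in part. Of 17 core clock genes 3 lay above 0 (Bhlhe41, Per3 and Nr1d1), with 5 without humanized TCPOBOP replicate 1 and 1 without humanized vehicle replicate 3 or wild-type TCPOBOP replicate 4. Of 12 clock output genes 3 lay above 0 (Dbp, Usp2 and Tef) and 2 below (Noct and Cdkn1a). Bhlhe41, a repressor of the clock loop, rose in humanized liver from 0.829, 0.698, 1.12 and 0.626 to 7.82, 4.32, 11.1 and 12.7 CPM (3.81 ± 0.80, adjusted p = 0.00657). Per3 and Usp2 had interactions of 2.39 ± 0.61 (adjusted p = 0.0222) and 2.49 ± 0.70 (adjusted p = 0.0359), which did not pass under 7 and 13 of 30 alternatives. In wild-type vehicle livers, replicate 3 was the lowest for Dbp, Per3 and Usp2, at 11.6, 7.32 and 6.38 CPM. Per1 and Ciart did not pass (0.49 ± 0.41, adjusted p = 0.551, and 1.93 ± 0.79, adjusted p = 0.156). The time of day at which each liver was taken was not given in the sources used here, and its part in these values was not tested.

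Sex-biased and zonal genes, which mark the hormonal and positional state of hepatocytes, also carried interactions. Of 19 male-biased liver genes 7 lay above 0, with a median of 2.16: Hsd3b5, Serpina12, Mup1, Ugt2b38, Slco1a1, Cyp7b1 and Nudt7. Hsd3b5, a steroid dehydrogenase of male liver, was at 99.8, 36.9, 207 and 234 CPM with vehicle and 50.1, 14.9, 24.4 and 15.3 CPM with TCPOBOP in wild-type liver. Humanized livers held 3.83, 27.9, 17.1 and 6.88 CPM with vehicle and 84.1, 194, 104 and 151 CPM with TCPOBOP. Humanized vehicle and wild-type TCPOBOP libraries were low, and the others high apart from wild-type vehicle replicate 2 (5.73 ± 0.85, adjusted p = 0.000594). Mup1 was spread from 0.285 to 54.0 CPM within wild-type vehicle livers (4.99 ± 1.27, adjusted p = 0.0222) and did not pass without humanized vehicle replicate 1 (adjusted p = 0.054) or 4 (adjusted p = 0.058). Of 11 female-biased genes 3 lay below 0, and 6 did without wild-type vehicle replicate 2. Of 19 pericentral genes 7 lay above 0 and 1 below, and 4 above 0 without humanized vehicle replicate 3 or wild-type TCPOBOP replicate 3. Glul, the glutamine synthetase of the last cells before the central vein, was at 1253, 815, 825 and 915 CPM with vehicle and 580, 704, 598 and 448 CPM with TCPOBOP in wild-type liver, and at 803, 603, 643 and 768 and 1661, 1181, 951 and 955 CPM in humanized liver (1.46 ± 0.30, adjusted p = 0.00652). Slc1a2, a glutamate carrier of the same zone, had an interaction of 2.01 ± 0.30 (adjusted p = 0.000627). Of 20 periportal genes 2 lay above 0, Pck1 and Pigr, and 4 without wild-type vehicle replicate 2 or humanized TCPOBOP replicate 1.

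Inflammatory lists held small numbers of interaction genes, where 3.48% of all genes tested lay above 0 and 3.98% below 0. Of 26 acute phase and metallothionein genes 3 lay above 0. This count was 1 without humanized vehicle replicate 1, replicate 2 of wild-type TCPOBOP, or replicate 1 or 3 of wild-type vehicle, and 5 without humanized TCPOBOP replicate 3, replicate 1 of wild-type TCPOBOP or replicate 4 of wild-type vehicle. Serpina3n, an acute phase protease inhibitor, fell in wild-type liver and had an interaction of 2.99 ± 0.53 (adjusted p = 0.00199). Of 21 interferon genes 2 lay below 0, Rsad2 (-2.28 ± 0.43, adjusted p = 0.00298) and Mx1, which did not pass under 21 of 30 alternatives.

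Markers of the cell types that whole liver contains were read beside these lists. Among 10 hepatocyte markers Alb (1.56 ± 0.34, adjusted p = 0.00935) and Trf, which did not pass under 11 of 30 alternatives, lay above 0. The summed level of the 10 was 89400 to 123000 CPM in wild-type vehicle livers and 36600 to 55200 CPM after TCPOBOP. For the humanized strain the ranges were 65400 to 87900 CPM without and 67700 to 82700 CPM with TCPOBOP. Of 14 Kupffer cell and macrophage markers, 1 passed, Cd163, above 0 (1.85 ± 0.46, adjusted p = 0.0183). Of these markers 4 passed without humanized TCPOBOP replicate 1, 2 without replicate 2 and 10 without both. Without replicates 3 and 4, 0 passed, and Cd163 was at 0.86 (adjusted p = 0.109). Over all genes, in the same order of settings, 1794 of 13081, 915 of 13100, 2876 of 13328 and 1039 of 13358 passed, against 963 of 12913 with all libraries. Under vehicle 10 of the 14 were lower in humanized than in wild-type livers, against 8.95% of all genes tested. Their summed level was 714 to 1450 CPM in wild-type livers given vehicle and 678 to 943 CPM in those given TCPOBOP, against 350.0 to 619 CPM and 334 to 891 CPM in the humanized strain. Of 13 sinusoidal endothelial markers 0 passed in edgeR, DESeq2 and limma-voom and 1 had an unadjusted p under 0.05. Here 1 passed below 0 without humanized TCPOBOP replicate 4, 4 below 0 without replicates 3 and 4, and 5 above 0 without replicates 1 and 2. Of 12 stellate cell and fibroblast markers 0 passed in any of these tools or at an unadjusted p under 0.05, and 2 passed below 0 without humanized TCPOBOP replicates 3 and 4. Summed endothelial markers were at 643 to 1230 CPM and 589 to 776 CPM in wild-type livers, without and with TCPOBOP, and at 381 to 481 CPM and 226 to 560.0 CPM in humanized livers. Among cholangiocyte, erythroid, neutrophil and adipocyte markers 0 passed in edgeR, DESeq2 and limma-voom, with 1 of 6, 3 of 5, 0 of 3 and 1 of 1 at an unadjusted p under 0.05. Over all genes tested, 2739 of 12913 had an unadjusted edgeR p under 0.05 for the interaction. The lymphocyte marker Cd4 and the pancreatic acinar marker Cela1 passed above 0, both at under 21 CPM in every library. In whole liver, fewer cells of a type and less of its RNA per cell cannot be told apart, and the part of cell composition in the interaction was not tested.

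Few genes passed the threshold in both strains in the same direction. A gene that did not pass in humanized liver may still have responded there. Of the 1690 genes that passed in wild-type liver, 715 had an interaction past the threshold. Of 12913 genes tested, 50 passed in both strains in the same direction, and 43 of them had no interaction past the threshold, 31 higher and 12 lower with TCPOBOP. For 22 of the 43 the 95% interval of the interaction lay within 1 log2 unit either side of 0, so a difference of 2-fold was outside the interval. Pygl, the liver glycogen phosphorylase, went from 488, 492, 457 and 516 to 799, 973, 838 and 804 CPM in wild-type and from 200, 285, 179.8 and 212 to 307, 346, 441 and 458 CPM in humanized liver. The changes were 0.81 and 0.82, and the interval of the interaction was -0.50 to 0.54. Mttp, which loads lipid onto apolipoprotein B, rose by 0.77 and 0.82 (interval -0.55 to 0.64). Humanized levels of Pygl stayed below those of wild-type livers under both treatments. Other shared genes had wide intervals: Acot11, an acyl-CoA thioesterase, changed by 1.19 and 2.53 (interval 0.35 to 2.33), and Ces2c by 3.41 and 1.75 (interval -2.87 to -0.44), neither past the adjusted threshold for the interaction. Ces2c passed with the replicate block (adjusted p = 0.0493), without humanized TCPOBOP replicate 3 (adjusted p = 0.0424), without wild-type vehicle replicate 4 (adjusted p = 0.0293) and without humanized TCPOBOP replicates 3 and 4 (adjusted p = 0.0217). Acot11 passed with DESeq2 (adjusted p = 0.0383), without humanized TCPOBOP replicate 1 (adjusted p = 0.0497) and with wild-type vehicle replicate 2 left out as well (adjusted p = 0.0338).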

How the data were processed

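Polyadenylated RNA of 16 livers was sequenced; per the labels' protocols, RNA was taken with Trizol and libraries were made with a NEBNext kit. Per the submitters' processing notes, STAR, DESeq2 and the mm10 genome were used; not given in the sources used here are versions, the counting program and strandedness. Counts deposited by the authors cover 40458 RefSeq transcript rows. Among values of 20 or more, 74.9% were even, against 75% for halved counts rounded to even numbers, so they may be halved. Rows were joined to symbols through RefSeq (40219) and GENCODE (125), 114 had none, and each gene took its row with the highest mean, giving 24970 genes. All 16 libraries were fitted in edgeR 4.0.16 (limma 3.58.1, R 4.3.3) with a mean per group, filterByExpr, TMM and quasi-likelihood F tests, two-sided, with Benjamini-Hochberg adjustment over the 12913 genes tested within each contrast. The fit left 12 residual degrees of freedom, with an edgeR common biological variation of 0.259 (coefficient). The procedure was tested on simulated data. CPM uses TMM-scaled gene-level library sizes, in which 3 counts correspond to 0.134 to 0.443 CPM. Values of the 4 mice of a group are listed in the order of replicates 1 to 4.

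The comparison, gene lists and members were chosen with earlier results of these data known. Named genes were the 12 largest interactions in each direction (at least 5 CPM in a group, over 3 counts in every group), up to 2 members of each of 39 lists and 5 genes of each response class by smallest p, and a set of 40 genes, 113 in all. The following were named after their values were seen: Mttp, Pygl, Acot11, Ces2c, Gsta2, Gstm1, Mcm2, Mcm10, Foxm1, Plk1, Per3, Usp2, Rgs16, Csad, Gpd1, Mgll, Ctsl, Slco1a1 and Gys2. Group apart was read from means of log2(CPM + 0.5). Alternatives were other normalizations, filters, row choices, thinning, limma-voom, DESeq2 1.42.0, a minimum size of 1.5-fold, the replicate block and leaving out libraries. Results for some genes are not reported here. Promoters came from RefSeq, the first listed per gene.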

Additional observations from a re-analysis of the deposited data

Results flagged for a closer look

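The change with TCPOBOP differed between the strains for 963 genes by the test of that difference itself. The report describes them.

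In 31 of 528 groups of 4 libraries, over the named genes, 1 library lay apart from the other 3 by more of the group's range than Dixon's critical value allows, which chance does for about 1 group in 20. The 31 are close to that rate, so any single case listed here may be due to chance. Wild-type vehicle replicate 2 was the high library for Cdc20 (4.09 CPM against 0.375 to 0.586), Prc1 (2.47 against 0.909 to 1.03), Cdk1 (2.47 against 0.75 to 1.03), Prom1 (8.84 against 0.563 to 1.17) and Gstm1 (979 against 471 to 538). Wild-type vehicle replicate 4 was high for Cyp4a10 (198 against 9.75 to 30.1), Acss3 (13.2 against 7.62 to 7.7) and Gys2 (216 against 102 to 121). In wild-type TCPOBOP livers, replicate 1 was low for Myc (29.3 against 58.6 to 64.2), Ybx3 (52.2 against 71.3 to 74.4), Nup205 (144 against 213 to 222) and Foxm1 (12 against 15 to 15.4). Replicate 2 of that group was high for Fads1 (1430 against 1130 to 1160) and Por (2450 against 1490 to 1560), replicate 3 was high for Smpd3 (90.3 against 69.9 to 72.6) and replicate 4 low for Cpox (97.8 against 102 to 103).

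In humanized vehicle livers, replicate 1 was high for Gsta1 (3.21 against 0.938 to 1.16), Cyp1a2 (429 against 333 to 346) and Cyp2b10 (23.1 against 14.9 to 16.1), and replicate 3 low for Rsad2 (11.9 against 18.8 to 20.1), Nup205 (9.94 against 10.3 to 10.4) and Pnpla3 (2.8 against 11.1 to 11.9). Humanized TCPOBOP replicate 3 was high for Cyp2b10 (201 against 63.3 to 79.7), Cyp7a1 (102 against 22.0 to 35.1), Rgs16 (394 against 125 to 141) and Rdh9 (73.9 against 52.6 to 55.6), and low for Saa4 (586 against 982 to 998). Replicate 1 of that group was low for Ces2e (75.8 against 109 to 113) and high for Cyp3a13 (424 against 235 to 268), replicate 2 low for Zzef1 (49.9 against 62.0 to 63.2) and replicate 4 low for Pck1 (2690 against 5420 to 5830). In wild-type vehicle replicate 2, Cdc20, Prc1 and Cdk1 were still below every wild-type TCPOBOP library. Whether anything beyond chance sets these libraries apart was not tested.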

How the results depend on the processing

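The 963 interaction genes, 449 above 0 and 514 below 0, numbered 404 (174 and 230) when the difference had to exceed 1.5-fold by glmTreat and 1481 with DESeq2's Wald test (822 above 0), which kept 957 of the 963. Leaving out 1 library gave 575 to 1794 genes, 268 to 963 above 0 and 307 to 882 below 0. Of 3 settings added after the data were seen, leaving out humanized TCPOBOP replicate 1 with wild-type vehicle replicate 2 gave 3140 (1586 and 1554), leaving out humanized TCPOBOP replicates 1 and 2 gave 2876 (1480 and 1396), and leaving out replicates 3 and 4 gave 1039, with 658 of the 963 among them. The cause of these shifts was not tested. The other planned settings gave counts within 1.5 times of the main ones, and the share above 0 lay between 39.2% and 55.5%, against 46.6%. With a replicate block the number was 865 (387 and 478); same-numbered libraries did not deviate together (median correlation 0.003, 6 of 24 pairs over 0.1), so the numbers do not pair the mice.

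Of 112 named genes past the threshold, 79 stayed past it under all 30 alternatives, and no such gene changed sign. Signs changed for 6 genes not past the threshold (log2 interactions below). Leaving out single libraries gave -0.045 to 0.26 for Nr1i2, -0.17 to 0.55 for Alas1, -0.56 to 0.21 for Fasn, -0.34 to 0.49 for Cidec, -0.092 to 0.20 for Mttp and -0.070 to 0.17 for Pygl. With humanized TCPOBOP replicate 1 and wild-type vehicle replicate 2 both left out, Nr1i2 was at -0.014, Alas1 at -0.17 and Mttp at 0.29. Without humanized TCPOBOP replicates 1 and 2 Fasn was at 0.25, and without replicates 3 and 4 Cidec was at 0.13, Mttp at -0.34 and Pygl at -0.23. Upper quartile normalization gave -0.032 for Mttp and -0.052 for Pygl, and limma-voom gave 0.12 for Cidec and -0.010 for Mttp. Depth limits genes near 3 counts: 15 interaction genes had a group of 3 or fewer counts.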

Other observations

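Several of the largest interactions lay outside the pathway lists. Gprc5a, an orphan G protein-coupled receptor, was at 6.56, 10.8, 11 and 4.96 CPM in wild-type TCPOBOP livers and at most 0.56 CPM in every other library (-7.04 ± 1.08, adjusted p = 0.000663). Fndc5, the precursor of irisin, was at 36.8, 40.1, 38.9 and 39.5 CPM in wild-type TCPOBOP livers and under 1 CPM in the 12 others (-5.08 ± 0.73, adjusted p = 0.000427). Nup205, a scaffold protein of the nuclear pore, was at 16, 16.8, 14.2 and 14.9 CPM with vehicle and 145, 215, 213 and 222 CPM with TCPOBOP in wild-type liver. Its humanized libraries lay between 6.79 and 14.7 CPM (-3.53 ± 0.31, adjusted p = 3.02e-06). The chemokine Ccl9 was at 74.9, 48.3, 61.9 and 49.4 CPM with vehicle and 338, 266, 398 and 426 CPM with TCPOBOP in wild-type liver, and between 85.7 and 165 CPM in humanized liver (-3.03 ± 0.28, adjusted p = 4.06e-06). Hells, a chromatin remodeller of dividing cells (-5.22 ± 0.62, adjusted p = 7.64e-05), and the MYB-family factor Mybl1 (-5.66 ± 0.81, adjusted p = 0.000436) rose in wild-type liver and did not pass the test in humanized liver. The same held for Fyb2 (-3.28 ± 0.26, adjusted p = 8.24e-07).

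Above 0, the water channel Aqp4 fell in wild-type liver from 8.21, 5.32, 6.1 and 5.54 to 2.52, 1.16, 1.54 and 0.481 CPM. Humanized livers went from 0.932, 0.698, 0.42 and 0.73 to 1.77, 2.09, 9.11 and 5.33 CPM, with replicates 3 and 4 at or above values of the wild-type vehicle group (4.84 ± 0.72, adjusted p = 0.000594). Acss3, a mitochondrial acyl-CoA synthetase, was at 7.62, 7.7, 7.69 and 13.2 CPM with vehicle and 3.28, 2.86, 2.15 and 1.06 CPM with TCPOBOP in wild-type liver, and at 0.932, 0.93, 0.7 and 0.626 CPM and 0.295, 1.25, 11.1 and 5.92 CPM in humanized liver. Humanized TCPOBOP replicates 3 and 4 again lay highest. Its interaction of 4.52 ± 0.90 (adjusted p = 0.00475) was 1.93 without those replicates (adjusted p = 0.13). Isyna1, of inositol synthesis, rested on the wild-type vehicle group, with 506, 1720, 29.5 and 12 CPM in its 4 libraries and between 16.4 and 65 CPM in the 12 libraries of the other groups (5.33 ± 1.31, adjusted p = 0.0177, and 0.19 with limma-voom). Obp2a, an odorant-binding lipocalin, was at 0.147, 0.0951, 3 and 3.91 CPM in wild-type vehicle livers, also divided, and at 15.1, 8.64, 1.64 and 4.5 CPM in humanized TCPOBOP livers (5.59 ± 1.30, adjusted p = 0.0129, and 0.091 with limma-voom).

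Among the 149 genes that passed for the interaction but in neither strain alone, St3gal5, which makes the ganglioside GM3, had the smallest p. It was at 245, 244, 162 and 169 and then 156, 153, 120.1 and 110.3 CPM in wild-type liver and at 108, 117, 137 and 149 and then 203, 181, 273 and 168 CPM in humanized liver (1.30 ± 0.28, adjusted p = 0.00876). The vitamin B6 kinase Pdxk had an interaction of 1.51 ± 0.34 (adjusted p = 0.00988). Of these 149 genes, 5 exceeded 1.5-fold by glmTreat and 146 passed in DESeq2.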
